A study of Gossypium barbadense with 4 samples.

Results

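The genes described here are the membrane transporters, ion pumps and water channels of Pima cotton (Gossypium barbadense) that could be named on the Affymetrix Cotton Genome Array. A probe set, the group of short probes that reports a single transcript or a few similar ones, was taken when the study's description of its GenBank accession held "transporter", "aquaporin", "intrinsic protein", "H+-ATPase", "V-type", "vacuolar ATP", "carrier protein", "translocator" or "channel". Of 24132 probe sets on the array, 155 of them controls, 35 were chosen in this way. The study described only probe sets that it had listed as different between the genotypes, so every member was chosen on that contrast. Of the 35 members, 27 were listed in ovules only, 6 in anthers only and 2 in both tissues. The descriptions made 26 of them transport proteins. The other 9 were set apart as matched by name only, 5 as ubiquitin carrier proteins, which pass ubiquitin to target proteins, and 4 as proteins of fatty acid synthesis. Of the 5, DT048852 also had a short match to the transporter KUP2.

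Semigamy is an abnormal fertilisation in which a sperm nucleus enters the egg and does not fuse with its nucleus. The semigametic line 57-4 was compared with Pima S-1, the nonsemigametic cultivar in which the mutation arose, in anthers and in ovules collected at 0 days post-anthesis (DPA), the day the flower opens. Both lines were grown in the field, and no treatment is named for any group. Each of the 4 combinations of tissue and genotype was measured on 1 array, from a pool of the RNA of 3 biological replicates, each of 10 flowers. No replicate error exists within a tissue, each genotype is a single line, and in whole anthers or ovules fewer cells of a type and less RNA per cell cannot be told apart.

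Water and solutes cross plant membranes through several kinds of protein. Pumps spend ATP or pyrophosphate to move protons or calcium, the proton gradient drives carriers that take up sugars, ions or nucleobases, and channels let water or ions follow their gradients. Vacuolar proton pumps acidify the vacuole and so load it with solutes, which with water entry through aquaporins sets turgor. In cotton ovules, some epidermal cells begin to grow into fibres at the day of flowering, a growth that rests on turgor.

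The mean signal after the outer 2% of values had been left out was 250.1 on every array, and the median signal ranged from 54.45 in Pima S-1 ovules to 75.95 in 57-4 anthers. Ratios are log2 of 57-4 over Pima S-1, taken after signals under 50 had been raised to 50. A fold against a signal under 50 is written as "at least", and no fold is given for a pair of signals under 50. As a measure of how widely ratios scatter, the robust SD of the log2 ratio over probe sets with both signals at least 100 was 0.34 in anthers (9799 probe sets) and 0.45 in ovules (9180 probe sets). It contains true differences as well as error. The signal from the 3' end of control transcripts exceeded that from the 5' end more on the 57-4 arrays than on the Pima S-1 arrays, for actin at 15.2 against 9.20 in anthers and 21.1 against 11.8 in ovules. For the ss1 control it was 17.4 against 8.35 and 20.4 against 4.18, and for ubq11 11.7 against 5.64 and 14.5 against 7.46. For the 9 spiked hybridization controls the median ratio was 0.47 in anthers and 0.40 in ovules. The part of these gaps in the genotype ratios was not tested, and scaling on the hybridization controls lowers the ratios in both tissues. Descriptions with pollen, anther or tapetum words were tied to 0 probe sets, so the anther label could not be checked on markers. Of 17 probe sets with ovule, fibre or seed words, 15 could be tested between the tissues. Of these, 5 were higher in ovules and 0 in anthers, against 12.0% and 14.9% of all probe sets tested, and 10 were not called. They too came from the study's lists.

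Of the 33 members measured in ovules, 5 were at least 2-fold lower in 57-4 and 1 was at least 2-fold higher, and 27 had a log2 ratio below 0. Over all 14704 probe sets measured in ovules, 4.14% were at least 2-fold lower, 4.46% at least 2-fold higher and 44.2% below 0. Among 31 members measured in anthers, 3 passed 2-fold downward and 0 upward, and 21 were below 0. The shares over all 15893 probe sets measured in anthers were 2.71%, 1.59% and 49.8%. The median log2 ratio of the members was -0.65 in ovules and -0.27 in anthers, against 0.06 and 0.00 over all measured probe sets. These counts repeat in part how the members were chosen. The direction in ovules follows the deposited labels: for all 27 members on the ovule list held here, the study's list gives the same 2 signals under exchanged genotype headings, and an exchange would turn every ovule ratio round.

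**Figure D1:**
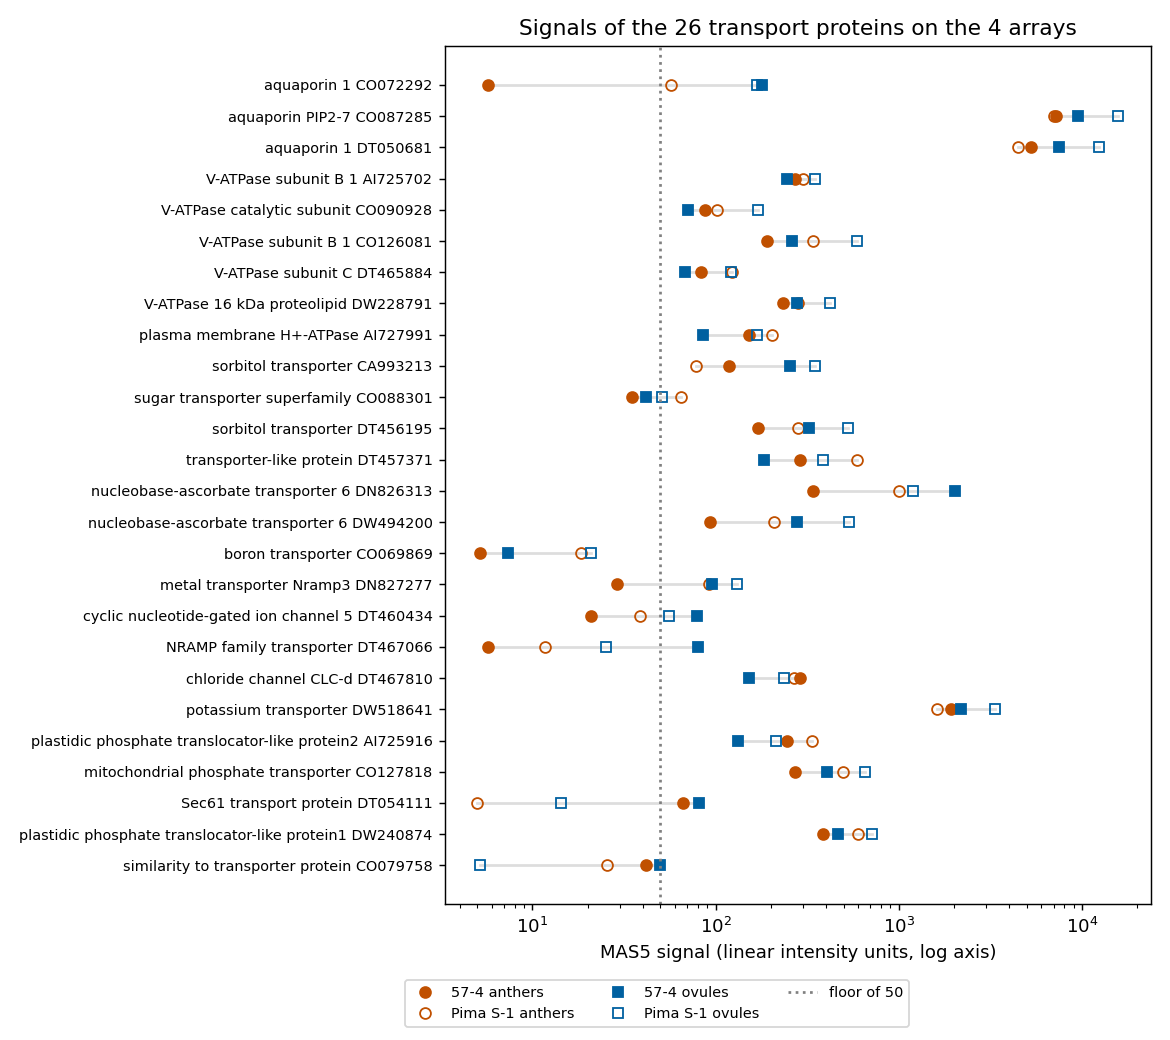
MAS5 signal on a log axis of the 26 transport proteins on each of the 4 arrays, with anthers as circles, ovules as squares, 57-4 filled and Pima S-1 open, and the floor of 50 dotted. Each symbol is 1 array. For all 5 vacuolar H+-ATPase probe sets both 57-4 symbols lie left of the Pima S-1 symbol of the same tissue.

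**Figure D2:**
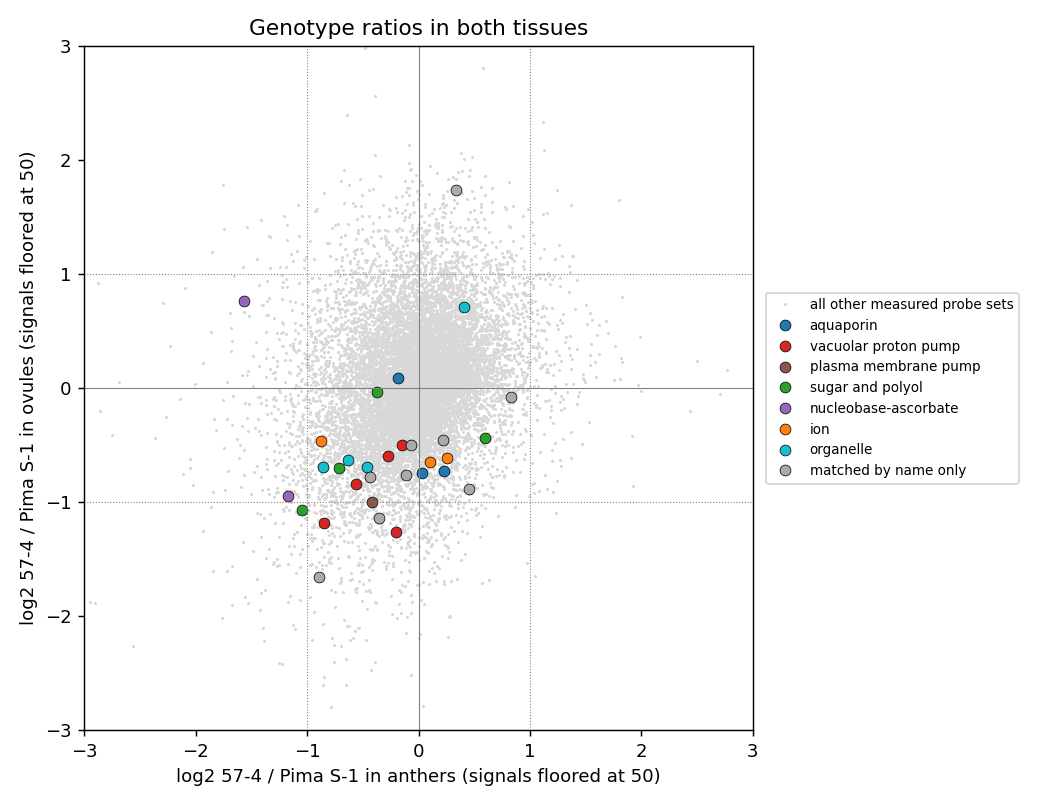
Log2 ratio of 57-4 to Pima S-1 in anthers (horizontal) and in ovules (vertical) for the 31 members measured in both tissues, coloured by class, over the 13426 probe sets measured in both (grey, 10 of them outside the axes). Dotted lines mark a 2-fold difference. Most members lie below 0 on the ovule axis, and 1 nucleobase-ascorbate transporter lies at -1.56 in anthers and 0.76 in ovules.

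The vacuolar H+-ATPase has a peripheral V1 sector, which splits ATP, and a membrane V0 sector, which carries the protons. Subunit A, the catalytic subunit of V1 [GenBank: CO090928], had signals of 88.0 and 101.2 in anthers of 57-4 and Pima S-1, and of 70.9 and 169.6 in their ovules. It was 2.39-fold lower in 57-4 ovules (log2 ratio -1.26, or -0.76 with a floor of 100, under 2-fold) and close to the Pima S-1 level in anthers (-0.20). Subunit B 1, the other nucleotide-binding subunit of V1, was described for 2 probe sets. The first [GenBank: CO126081] had signals of 190.0 and 342.1 in anthers of 57-4 and Pima S-1, and of 259.9 and 588.9 in ovules. Both ratios were below 0, with -0.85 in anthers and -1.18 in ovules. The second [GenBank: AI725702] had 269.8 and 298.3 in anthers and 244.9 and 347.0 in ovules. Its ratios, -0.14 and -0.50, were smaller, and the anther ratio was within the scatter of all probe sets. A further probe set of the CO126081 UniGene cluster, which the study did not list, had signals of 63.4 and 155.9 in anthers and of 115.1 and 178.4 in ovules, with ratios of -1.30 and -0.63. It was lower in 57-4 in both tissues, as the listed probe set was.

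Subunit C [GenBank: DT465884], part of the stalk between the sectors, had signals of 83.6 and 123.0 in anthers of 57-4 and Pima S-1 and of 67.9 and 121.8 in ovules. Its array annotation names only an unknown protein, and its ratios were -0.56 and -0.84, the latter -0.28 with a floor of 100. The 16 kDa proteolipid [GenBank: DW228791], which forms the proton-carrying ring of V0, had 233.7 and 282.5 in anthers and 279.6 and 423.0 in ovules. Both ratios were again below 0, at -0.27 and -0.60. Outside the word rule the study's lists held 3 more vacuolar pump probe sets. Subunit E [GenBank: DT552926] was 2.32-fold lower in 57-4 anthers, with a signal of 86.1 against 199.4, and had 161.4 against 274.8 in ovules. A vacuolar proton-ATPase subunit-like protein [GenBank: DN804335] had 182.9 against 362.8 in anthers and 240.4 against 483.2 in ovules, with ratios of -0.99 and -1.01. The H+-pyrophosphatase VPP [GenBank: AF009568], a vacuolar proton pump that uses pyrophosphate in place of ATP, had 476.6 against 662.3 and 959.9 against 1722.1, with ratios of -0.47 and -0.84.

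All 8 of these vacuolar pump probe sets came from the ovule list alone, so their anther ratios were not the values that listed them. In anthers the 5 that the word rule chose had a median of -0.27, with 5 below 0 and 0 passing 2-fold. With the 3 others, 8 of 8 lay below 0, from -1.21 to -0.14 with a median of -0.52, and 1 passed 2-fold downward, against 49.8% below 0 and 2.71% passing 2-fold downward over all probe sets. The anther ratios of AI725702, CO090928 and DW228791 were within the robust SD of 0.34 over all probe sets. In ovules 8 of 8 lay below 0, from -1.26 to -0.50 with a median of -0.84. With quantile normalization the count below 0 in anthers was also 8 of 8, with a highest ratio of -0.03. The other settings gave 8 of 8 too, but could not have turned these signs. Every signal of the 8 was above 50, and a floor of 100 keeps the order of 2 signals. Centring moves the anther ratios by 0.0019, and scaling on the hybridization controls lowers them. The probe sets share the same 4 arrays, and no test of the pump as a whole was made. The only plasma membrane pump among the members was an H+-ATPase that energises uptake into the cell [GenBank: AI727991]. It had signals of 152.3 and 204.0 in anthers of 57-4 and Pima S-1 and of 84.9 and 169.3 in ovules, with ratios of -0.42 and -0.996. It was lower in 57-4 in both tissues, just under 2-fold (1.99) in ovules.

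**Figure D3:**
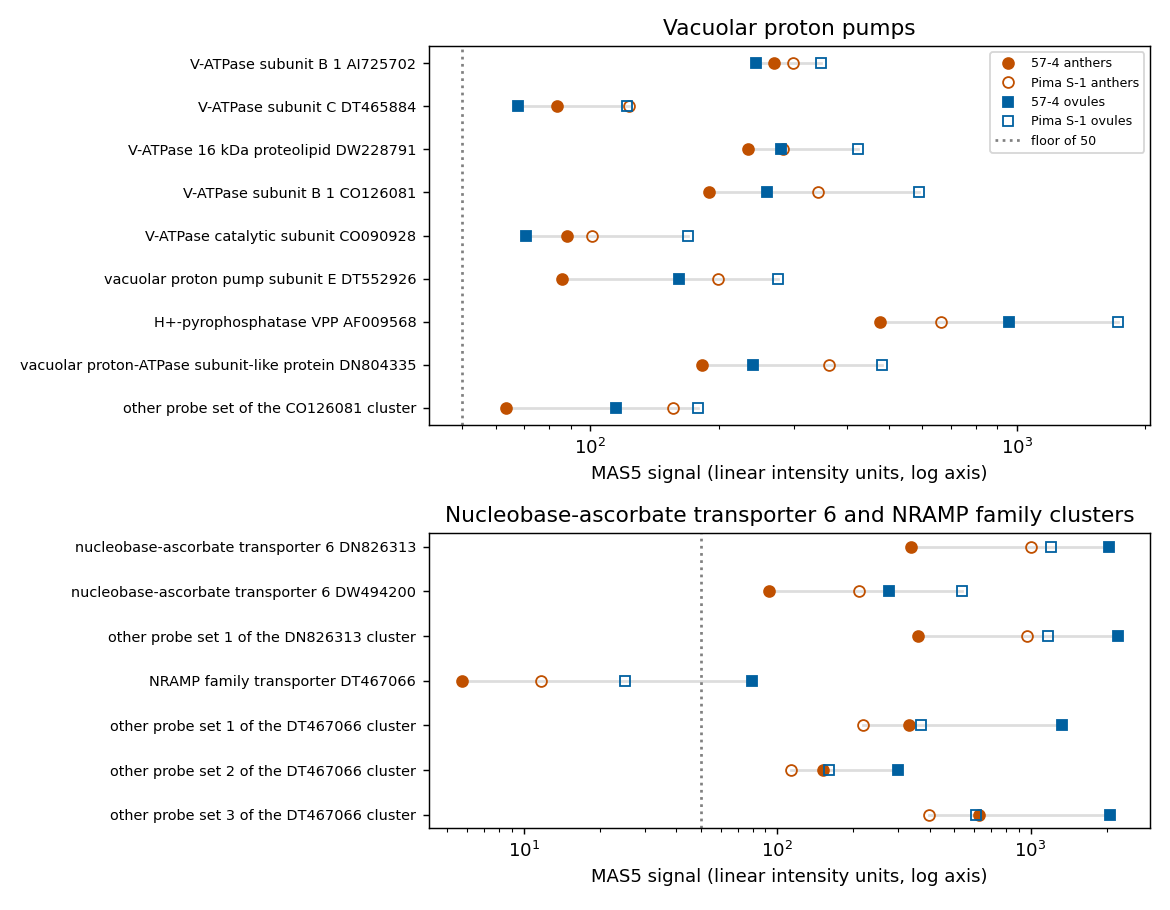
MAS5 signal on a log axis for 9 vacuolar proton pump probe sets (upper panel) and for the nucleobase-ascorbate transporter 6 and NRAMP family probe sets with others of their clusters (lower panel), with 1 symbol for each array, and the floor of 50 dotted. Filled 57-4 symbols lie left of the open symbol of the same tissue in every row of the upper panel. In the lower panel every probe set plotted but DW494200 is brightest in 57-4 ovules.

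Aquaporins are water channels. PIP2-7 [GenBank: CO087285], of the plasma membrane, had signals of 7229.4 and 7064.8 in anthers of 57-4 and Pima S-1, and of 9453.8 and 15816.1 in their ovules. An aquaporin 1 [GenBank: DT050681], which the array annotation likens to Arabidopsis PIP1C, had 5247.7, 4477.0, 7511.0 and 12442.0 in the same order. Both were brightest in Pima S-1 ovules and were lower in 57-4 ovules, at -0.74 and -0.73, while in anthers the genotypes were close, at 0.03 and 0.23. A second aquaporin 1 [GenBank: CO072292], listed in anthers, had 5.7 and 56.9 in anthers, near or under the floor, and 179.9 and 169.0 in ovules. Its anther ratio was -0.19 with the floor, a fold of at least 1.14, and -3.32 with no floor, a value set by a signal of 5.7. Another probe set of the PIP2-7 cluster, not listed by the study, had 95.6 and 107.4 in anthers and 180.3 and 105.8 in ovules. Its ovule ratio of 0.77 was opposite in sign to that of CO087285. Outside the word rule, the delta-tonoplast intrinsic protein [GenBank: U62778], a water channel of the vacuole membrane, had 140.6 and 109.5 in anthers and 982.7 and 1318.6 in ovules.

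Sugar and polyol carriers use the proton gradient to take up their substrate. The transporter-like protein [GenBank: DT457371], which the array annotation likens to a sugar porter and which both lists held, had signals of 288.5 and 594.7 in anthers of 57-4 and Pima S-1, and of 184.3 and 386.7 in their ovules. It was 2.06-fold lower in 57-4 anthers and 2.10-fold lower in 57-4 ovules, the only transport protein among the members to pass 2-fold in both tissues. A sorbitol transporter [GenBank: DT456195] had 171.0 and 280.6 in anthers and 322.6 and 525.2 in ovules, with ratios of -0.71 and -0.70. The array annotation calls it an unknown protein, and the 2 further probe sets of its cluster, neither of them listed, were lower in 57-4 anthers (-0.70 and -0.52) and higher in 57-4 ovules (0.29 and 0.24). A second sorbitol transporter [GenBank: CA993213] had 118.1 and 78.1 in anthers and 256.0 and 347.1 in ovules. Its ratio was 0.60 in anthers and -0.44 in ovules. The sugar transporter superfamily member [GenBank: CO088301] had 34.9 and 64.6 in anthers and 41.8 and 51.1 in ovules, at or near the floor on every array.

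Nucleobase-ascorbate transporters are a family of carriers named for nucleobases and ascorbate. The probe set described as nucleobase-ascorbate transporter 6 and listed in anthers [GenBank: DN826313] had signals of 339.0 and 1001.5 in anthers of 57-4 and Pima S-1, and of 2036.3 and 1200.3 in their ovules. It was 2.95-fold lower in 57-4 anthers and 1.70-fold higher in 57-4 ovules, so that 57-4 held both its lowest and its highest signal. Another probe set of its cluster, also on the anther list, had 359.6, 971.3, 2208.0 and 1177.4, with ratios of -1.43 and 0.91. Both probe sets are of a type that several similar transcripts can bind, and the array annotation of DN826313 points to a polyprotein rather than a transporter. The other 3 probe sets of the cluster had every signal at or under 65.0. The second nucleobase-ascorbate transporter 6 [GenBank: DW494200], listed in ovules, had 92.8 and 209.6 in anthers and 277.3 and 534.5 in ovules. It was 2.26-fold lower in 57-4 anthers, the tissue that had not listed it, and 1.93-fold lower in 57-4 ovules. This probe set too is of a type that several similar transcripts can bind, and it is a member only when accession versions are removed.

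Among the ion transporters, the potassium transporter [GenBank: DW518641] had signals of 1931.7 and 1620.6 in anthers of 57-4 and Pima S-1, and of 2189.3 and 3343.0 in their ovules. Its name rests on the study's description alone, which marks the match as partial (10%). Like the bright aquaporins it was brightest in Pima S-1 ovules, and its ratio was 0.25 in anthers against -0.61 in ovules. The metal transporter Nramp3 [GenBank: DN827277], whose Arabidopsis namesake releases metals from the vacuole, had 28.8 and 91.8 in anthers and 95.7 and 131.6 in ovules. Its 57-4 signal was 1.38-fold lower in ovules, and at least 1.84-fold lower in anthers. A probe set described as chloride channel CLC-d [GenBank: DT467810], which the array annotation calls SLT1, a protein of sodium and lithium tolerance, had 287.7 and 268.7 in anthers and 151.5 and 237.3 in ovules, with ratios of 0.10 and -0.65. The cyclic nucleotide-gated ion channel 5 [GenBank: DT460434], which the array annotation calls a hydrolase, was under 50 in both anther arrays (20.9 and 38.6) and had 79.1 and 55.7 in ovules. The boron transporter [GenBank: CO069869] was under 50 on all 4 arrays (5.2 to 20.9), so its genotypes cannot be compared.

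The NRAMP family transporter [GenBank: DT467066] had signals of 5.7 and 11.7 in anthers of 57-4 and Pima S-1, and of 79.9 and 25.1 in their ovules. It was at least 1.60-fold higher in 57-4 ovules, and its array annotation names only an unknown protein. The other 3 probe sets of its cluster were brighter. The first had 331.4 and 218.7 in anthers and 1336.1 and 368.4 in ovules, and the third had 625.0 and 396.0 in anthers and 2052.8 and 607.5 in ovules. These were on the ovule list, and were 3.63-fold and 3.38-fold higher in 57-4 ovules. The second, which was not listed, had 151.3 and 113.6 in anthers and 300.7 and 160.6 in ovules, 1.87-fold higher in 57-4 ovules. All 3 were also higher in the anthers of 57-4 (0.41 to 0.66). The probe sets of the cluster were thus higher in 57-4 in each measured comparison, where most members were lower. The transporter name belongs to the dim member DT467066 alone, on a match marked as partial (3%). No description with a chosen word was tied to the other 3, which are of types that can report more than 1 transcript. Their ratios are thus not those of a described transporter.

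Carriers of the organelles exchange phosphate and metabolites with the cytosol. The mitochondrial phosphate transporter [GenBank: CO127818], which brings phosphate to the matrix for ATP synthesis, had a signal of 272.8 and 495.0 in anthers of 57-4 and Pima S-1 and of 403.6 and 650.3 in ovules, with ratios of -0.86 and -0.69. The plastidic phosphate translocator-like protein1 [GenBank: DW240874] had 386.6 and 597.7 in anthers and 464.3 and 717.0 in ovules, with ratios of -0.63 in both tissues. The plastidic phosphate translocator-like protein2 [GenBank: AI725916] had 244.8 and 337.6 in anthers and 132.7 and 214.6 in ovules, with ratios of -0.46 and -0.69. All 3 were lower in 57-4 in both tissues, and all 3 were listed in ovules only. The Sec61 transport protein [GenBank: DT054111], the pore through which proteins enter the endoplasmic reticulum, went the other way. Its signals were 66.2 and 5.0 in anthers and 81.6 and 14.3 in ovules, at least 1.32-fold and 1.63-fold higher in 57-4. The probe set described only as similar to a transporter protein [GenBank: CO079758] was under 50 on every array.

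The 9 members that match by name only were not described as transporters, apart from the short KUP2 match of DT048852. The 5 ubiquitin carrier proteins had ratios from -1.66 to -0.08 in ovules and from -0.89 to 0.83 in anthers, and 1 of them [GenBank: DW227239] was 3.16-fold lower in 57-4 ovules, with a signal of 133.7 against 422.2. Among the 4 proteins of fatty acid synthesis, the palmitoyl-acyl carrier protein thioesterase [GenBank: DW480118], which ends palmitate synthesis in the plastid, had 1122.2 and 891.3 in anthers and 1366.0 and 409.8 in ovules. It was 3.33-fold higher in 57-4 ovules, the only member of the 35 to pass 2-fold upward in either tissue. The myristoyl-acyl carrier protein thioesterase [GenBank: DW520106], of the same enzyme type, was 2.20-fold lower in 57-4 ovules, with 96.2 against 211.3. Without these 9, the median log2 ratio of the 26 transport proteins was -0.64 in ovules, with 3 of 24 measured at least 2-fold lower and 0 higher, and -0.40 in anthers, with 3 of 22 measured lower and 0 higher.

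A reading less bound to the study's lists is the ratio in the tissue that did not list a member. Of the 27 members listed in ovules only, 25 could be measured in anthers. There 1 passed 2-fold downward, the nucleobase-ascorbate transporter DW494200, and 0 passed upward. In this set 16 of 25 ratios were below 0, with a median of -0.20, against 49.8% and 0.00 over all probe sets. Over the 11 of them on probe sets designed for a single transcript the median was 0.10. Of the 6 members listed in anthers only, 5 were measured in ovules, with 0 at least 2-fold different, ratios from -0.08 to 0.76 and a median of 0.09. Outside the word rule, 17 further transport proteins stood on the study's lists. In anthers 4 of them passed 2-fold downward in 57-4 and 0 upward, against 2.71% and 1.59% of all probe sets. In ovules 2 passed downward and 0 upward, against 4.14% and 4.46%. The lists were made on this contrast, so nothing is read from these counts.

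The calcium transporters were among those 17. Calcium-transporting ATPase 9 [GenBank: DT461952], whose Arabidopsis namesake expels calcium from pollen tubes, had a signal of 128.4 and 461.7 in anthers of 57-4 and Pima S-1 and of 198.7 and 373.6 in ovules. It was 3.60-fold lower in 57-4 anthers and 1.88-fold lower in 57-4 ovules. The endoplasmic reticulum type calcium-transporting ATPase 1 [GenBank: DT048998] had 186.3 and 542.8 in anthers and 207.7 and 249.5 in ovules, 2.91-fold and 1.20-fold lower. A Ca2+/H+ exchanger [GenBank: DW502919], which loads calcium into the vacuole, had 392.1 and 944.5 in anthers and 353.6 and 488.0 in ovules, 2.41-fold and 1.38-fold lower. All 3 were on the anther list, so their anther ratios are a description of listed genes. DT461952 was on the ovule list as well, so the same holds for its ovule ratio. The other 2 of the 5 calcium transporters were the Ca2+/H+ exchanger DT467511, on both lists, with 93.8 and 184.3 in anthers and 234.1 and 416.8 in ovules, and the ACA9-like calcium-transporting ATPase DT049304. The latter, listed in ovules, had 558.0 and 525.5 in anthers and 450.4 and 569.2 in ovules, with ratios of 0.09 and -0.34, so a lower anther level was not common to all 5. A metal ion transporter-like probe set [GenBank: DT051465] was 2.43-fold lower in 57-4 ovules, with 127.5 against 310.0. The Na+/H+ antiporter NHX1 [GenBank: AF515632], which loads sodium or potassium into the vacuole, had 426.1 and 473.2 in anthers and 1321.5 and 2246.4 in ovules.

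Anthers and ovules were then compared with the genotypes as the 2 replicates of each tissue. The lists were not made on this contrast, but they were made from the same arrays. The fit (limma, Benjamini-Hochberg adjustment over 12179 probe sets) leaves 1 residual degree of freedom, since genotype is a term in it, so an error rests on how far the tissue difference varies between the genotypes and on what the fit borrows from other probe sets. Of the 29 members tested, 10 were higher in ovules and 1 in anthers, and 18 did not pass an adjusted p of 0.05. The fit took only probe sets with a brightest signal of at least 100. Among the 10, an aquaporin 1 (CO072292) and the acyl carrier protein (DW240158) reached that signal in ovules alone. Over all probe sets tested, 26.8% were called, 12.0% as higher in ovules and 14.9% in anthers. The difference was toward ovules in 21 of the 29, against 41.1% of all probe sets. By list, 6 of the 24 tested members listed in ovules only were higher in ovules and 1 in anthers, 3 of the 3 listed in anthers only were higher in ovules, and so was 1 of the 2 listed in both. Of the members listed in ovules only, 23 of the 26 measured in ovules were below 0 in their genotype ratio. Such a listing favours a bright Pima S-1 ovule array, which also enters this contrast, so the counts toward ovules are not independent of it. The part of the listing in these counts was not tested. Without the moderation trend the fit called 4 members higher in ovules and 0 in anthers, and 1774 of all probe sets in place of 3269. Scaling on the hybridization controls moved the share of all calls that were higher in anthers from 55.4% to 70.5%.

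**Figure D4:**
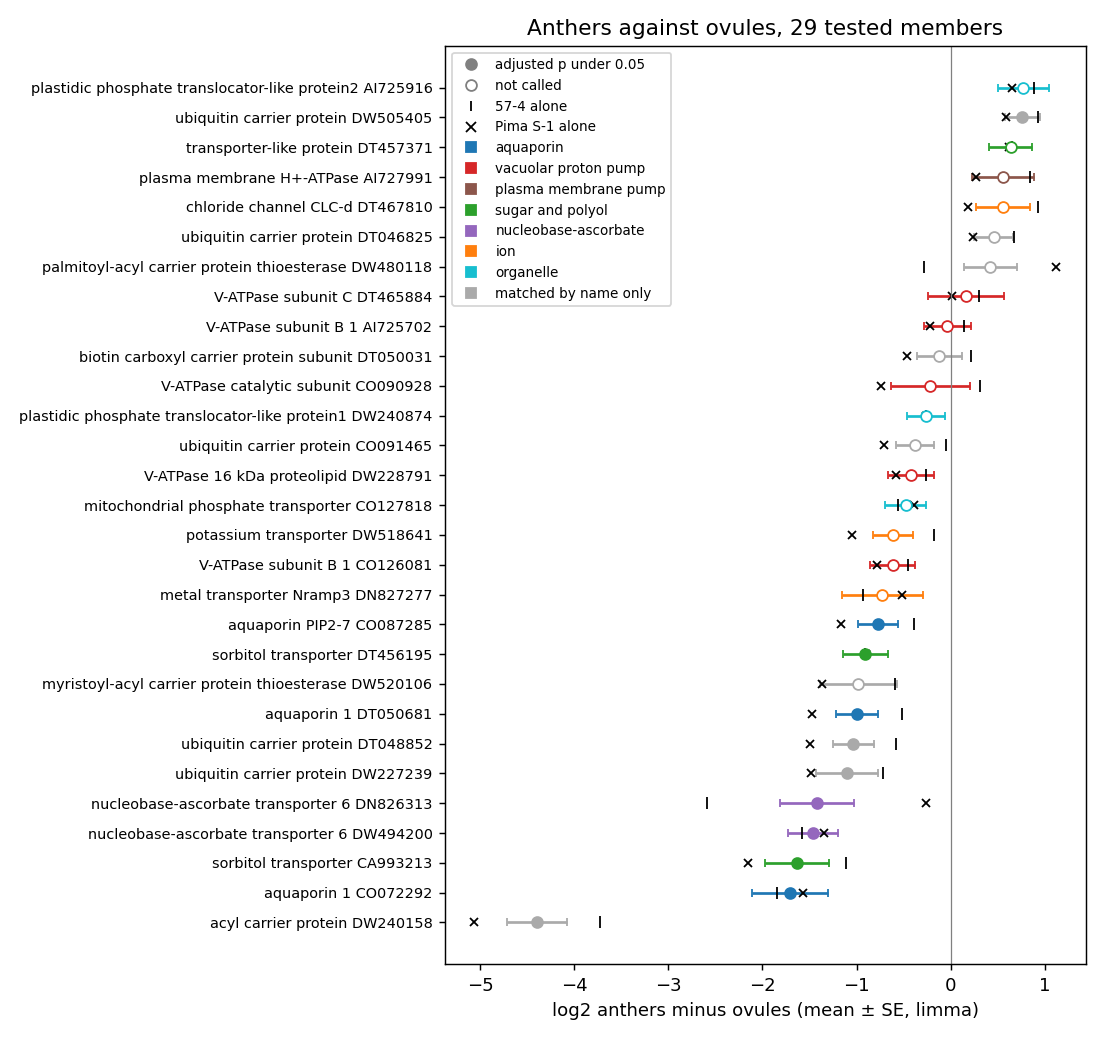
Log2 difference of anthers minus ovules for the 29 tested members, as the mean over the genotypes with the SE of the limma fit, filled where the adjusted p was under 0.05, and with the value in each genotype alone as a tick (57-4) or a cross (Pima S-1). All 5 vacuolar H+-ATPase probe sets are open symbols, and the nucleobase-ascorbate transporter DN826313 has its tick and its cross 2.33 apart.

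All 3 aquaporins were higher in ovules. The aquaporin 1 of the anther list (CO072292) was at least 3.27-fold higher in ovules (log2 difference -1.71 ± 0.40 SE, adjusted p = 0.00921), and the bright aquaporin 1 (DT050681) was 1.99-fold higher (-0.996 ± 0.22, adjusted p = 0.00730). The call of the first held in all 6 alternatives that tested it, and that of DT050681 was lost with quantile normalization (adjusted p = 0.15) and without the moderation trend (adjusted p = 0.086). CO072292 entered the fit through its ovule signals alone, so a call toward anthers was hardly open to it, and nothing is read from its p-value. PIP2-7 was 1.71-fold higher (-0.77 ± 0.21, adjusted p = 0.0187), and quantile normalization reduced its difference to -0.11 (adjusted p = 0.72), and 4 of 7 alternatives ended its call. The bright pair differed more between the tissues in Pima S-1 (-1.47 and -1.16) than in 57-4 (-0.52 and -0.39), a gap that has no test here. The delta-tonoplast intrinsic protein (U62778), named by the array annotation alone, was 9.17-fold higher in ovules (-3.20 ± 0.25, adjusted p = 5.54e-06).

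Both sorbitol transporters were higher in ovules, CA993213 by 3.10-fold (-1.63 ± 0.34, adjusted p = 0.00438) and DT456195 by 1.88-fold (-0.91 ± 0.24, adjusted p = 0.0161, and 0.057 without the trend), while the transporter-like protein DT457371 had 0.63 ± 0.23 (adjusted p = 0.064). Both nucleobase-ascorbate transporters were called higher in ovules. For DW494200 the difference was alike in the genotypes, -1.58 in 57-4 and -1.35 in Pima S-1 (-1.46 ± 0.26, adjusted p = 0.00202), and its adjusted p ranged from 0.0045 to 0.024 over the 7 alternatives. For DN826313 it was -2.59 in 57-4 and -0.26 in Pima S-1 (-1.42 ± 0.39, adjusted p = 0.01997), and 5 of the 7 alternatives ended the call.

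No vacuolar H+-ATPase member was called between the tissues, where 26.8% of all probe sets tested were. With 2 arrays per tissue, a member that was not called may still differ. The 5 probe sets, for 4 subunits, had differences from -0.62 ± 0.24 (CO126081, adjusted p = 0.079) to 0.16 ± 0.40 (DT465884, adjusted p = 0.79). The plasma membrane H+-ATPase had 0.56 ± 0.33 (adjusted p = 0.24), the potassium transporter -0.61 ± 0.22 (adjusted p = 0.055) and the mitochondrial phosphate transporter -0.48 ± 0.22 (adjusted p = 0.12). At the vacuole membrane, some other transporters of the study's lists were higher in ovules and some were not called. NHX1 was 3.84-fold higher (-1.94 ± 0.21, adjusted p = 5.88e-05), a Ca2+/H+ exchanger (DT467511) 2.38-fold (-1.25 ± 0.28, adjusted p = 0.00674) and the H+-pyrophosphatase VPP 2.29-fold (-1.19 ± 0.20, adjusted p = 0.00114). Not called were the Ca2+/H+ exchanger DW502919, with a difference of 0.55 toward anthers (adjusted p = 0.11), subunit E of the proton pump (-0.68, adjusted p = 0.12) and the subunit-like protein DN804335 (-0.40, adjusted p = 0.23). An amino acid permease-like probe set (CO090717) and the mitochondrial adenine nucleotide translocator 2 (DT527426) were also called, 1.72-fold (adjusted p = 0.0126) and 1.46-fold (adjusted p = 0.0440) higher in ovules. In all, 6 of these 17 were higher in ovules and 0 in anthers, against 12.0% and 14.9% of all probe sets, and these 17 too came from the study's lists.

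Of the 18 further probe sets in the members' UniGene clusters, 10 could be tested between the tissues, and 4 were higher in ovules and 0 in anthers, against 12.0% and 14.9% of all probe sets. These were the listed probe set beside DN826313 and the listed pair beside DT467066, with differences from -1.45 to -1.17, and a probe set of the DT460434 cluster. The last lies beside the probe set described as cyclic nucleotide-gated ion channel 5, which was too dim to test, and had a signal of 520.9 and 814.9 in anthers and of 1203.3 and 1373.1 in ovules (-0.98 ± 0.20, adjusted p = 0.00400). Among the name-only members, the acyl carrier protein [GenBank: DW240158], which holds the growing fatty acid chain, had 68.4 and 43.1 in anthers and 901.4 and 1667.9 in ovules. Its level was 21.0-fold higher or more in ovules (-4.39 ± 0.32, adjusted p = 3.08e-06), and its adjusted p stayed under 0.05 in all 7 alternatives. It too entered the fit through its ovule signals alone, so a call toward anthers was hardly open to it, and nothing is read from its p-value. Of the ubiquitin carrier proteins, DT048852 and DW227239 were called higher in ovules, by 2.05-fold and 2.15-fold, and 2 and 5 of 7 alternatives ended those calls. DW505405 was the only member called higher in anthers, by 1.69-fold (0.76 ± 0.18, adjusted p = 0.0107), and the call was lost without the moderation trend (adjusted p = 0.088).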

How the data were processed

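Biotin-labelled RNA of 4 pools was hybridized to Affymetrix Cotton Genome arrays. The deposited values are intensities, MAS5 signals on a linear scale, made by the authors with the Affymetrix operating software (version: not given in the sources used here), each array scaled to a common trimmed mean. The members and gene lists were chosen with earlier results of these data known. Product names came from the study's lists, matched by GenBank accession with version numbers removed. The ovule list was held in part, and 9 accessions with a chosen word were tied to no probe set. All transport-class members are named. Further transport proteins and cluster probe sets are named where they differed 2-fold or between tissues, and a few others for contrast. No array-wide annotation or probe sequence was used. Genotype ratios carry no test. The tissues were compared with limma 3.58.1 (R 4.3.3) on log2 signals floored at 50, with tissue and genotype as terms, eBayes with a trend, a brightest signal of at least 100 and Benjamini-Hochberg adjustment. The p-values rest on how far the tissue difference varies between the genotypes and, for the larger part, on variance borrowed from other probe sets. The borrowed part counts as 10.3 degrees of freedom, against 1 residual. They hold no replicate error within a tissue and genotype. The code of the fit was run on simulated data with equal noise for every probe set and the same tissue difference in both genotypes. That setting differs from these arrays, so the run does not bear on the calls. The tables were made with pandas in Python. The number of arrays limits the precision.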

Additional observations from a re-analysis of the deposited data

Results flagged for a closer look

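The nucleobase-ascorbate transporter 6 probe set DN826313 moved in opposite directions in the tissues. On the log2 scale its 57-4 signal over the Pima S-1 signal stood at -1.56 in anthers and 0.76 in ovules, a gap of 2.33. Another probe set of the same cluster had -1.43 and 0.91, a gap of 2.34. With 1 array per group the difference between the tissues was not tested, and the 2 probe sets are not independent, since their clusters, arrays and possibly transcripts are shared.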

How the results depend on the processing

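Limits first. Each group is 1 array of pooled RNA, so genotype ratios have no error, and signals near the floor of 50 have no order. The array's names can be old, and those of DN826313, DT460434, DT467810, DT467066, DT456195 and DT465884 differ between the study and the array annotation. So do those of the ubiquitin carrier proteins DT046825, DT048852 and DW227239, which the array annotation calls unknown proteins. Some of the study's names rest on a small partial match. It was 3% for DT467066, 4% for DT467810, 10% for DT460434 and DW518641, and 16% for DT465884. Among the ubiquitin carrier proteins it was as low as 3%. The tissue fit pairs the arrays within a genotype through its genotype term, and no pairing by replicate number was made, since the labels give none.

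In anthers, the members at least 2-fold lower in 57-4 numbered 3, against 5 with no floor, 10 with scaling on the hybridization controls, 1 at a log2 threshold of 1.5 and 1 among probe sets for a single transcript, and those higher numbered 1 with no floor. The median moved from -0.27 to -0.69 with scaling on the hybridization controls. That scaling shifts all ratios, to a median over all probe sets of -0.43 in anthers and -0.35 in ovules. In ovules, the members lower numbered 5, against 20 with that scaling, 1 at the threshold of 1.5, and 3 each among single-transcript probe sets, among transport proteins alone and with accession versions kept. Those higher numbered 3 with no floor and 0 among transport proteins or with versions kept. Exchange of the ovule columns gives a median of 0.65, with 5 higher and 1 lower.

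For members listed in ovules only, the anther median of -0.20 was -0.67 when the hybridization controls set the scale, and 0.10 on single-transcript probe sets. The count lower, 1, became 7 with that scaling, 2 with no floor (and 1 higher), and 0 at the threshold of 1.5, on single-transcript probe sets and with versions kept. For members listed in anthers only, the ovule median of 0.09 became -0.15 with that scaling.

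Between the tissues, the 10 members higher in ovules became 6 with quantile normalization and 4 without the trend, and the 1 higher in anthers was 4 under scaling to the hybridization controls and 0 without the trend. All calls fell from 3269 to 1774 without the trend. Differences that were not called changed sign for AI725702 (0.14) and DT050031 (0.0513) with scaling on the hybridization controls and for DT465884 (-0.0092) with quantile normalization. The median tissue difference of the members, -0.48, kept its direction in each genotype alone. The causes were not tested. Outside the 35 members, single tissue calls were not followed under the alternatives, only the count over all probe sets.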
